A study of Mus musculus with 12 samples.

Results

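The epithelial splicing regulators Esrp1 and Esrp2, their partner Rbm47 and 5 genes spliced under their control, Fgfr2, Cd44, Ctnnd1, Enah and Arhgef11, were followed transcript by transcript in cultured mouse proximal tubule (PT) cells with and without the TGF-β type II receptor. The members are these 8 named genes of 25514 genes counted, with 116 transcripts of 106332 in the deposited table. The set was chosen by the counts of Esrp1, which was seen in Tgfbr2-/- cells and in no Tgfbr2fl/fl library, so the difference of Esrp1 between genotypes is given as a description without a test, and the genotype comparisons of the other members were made with that difference known. RNA-seq covered 12 libraries in 4 groups of 3: H2ts6;Tgfbr2fl/fl and H2ts6;Tgfbr2-/- cells, each in normal culture media or in serum free media with H2O2 for 24 h. All libraries came from conditionally immortalized PT cells of male mice that carried the H2ts6 transgene and the floxed Tgfbr2 alleles. The alleles were removed in culture with an adenovirus carrying Cre, which gave 2 cell populations. TβRII loss and any other difference between these populations cannot be told apart, and neither can H2O2 and removal of serum. Nothing in the labels says that the 3 libraries of a group came from separate cultures, so p-values measure the spread between these libraries, which may be technical.

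Esrp1 and Esrp2 are RNA-binding proteins of epithelial cells. They bind near alternative exons and set whether those exons enter the mature transcript, and their loss during epithelial-mesenchymal transition switches their targets to mesenchymal forms. Fgfr2 is the textbook target: the exon IIIb gives an epithelial receptor and the mutually exclusive exon IIIc a mesenchymal one, with different ligand preference. Cd44, the hyaluronan receptor, has a row of variable exons (v1 to v10) between its constant exons, and Esrp activity favours their inclusion. TGF-β is a well-known inducer of the mesenchymal transcription factors Zeb1 and Zeb2, which repress Esrp genes.

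Exons that separate these forms are shown because the isoform results turn on them. They were read from GRCm39, both genes lying on the minus strand. The Fgfr2 exon IIIb (chr7:129801488-129801635, 148 nt), a coding exon, marks the epithelial form.
IIIb: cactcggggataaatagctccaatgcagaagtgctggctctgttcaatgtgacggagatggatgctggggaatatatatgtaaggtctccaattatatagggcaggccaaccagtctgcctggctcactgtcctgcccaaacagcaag
The 5 variable exons v6 to v10 of Cd44 are coding exons too and lay at chr2:102669703-102669822 (v6, 120 nt), chr2:102668158-102668283 (v7, 126 nt), chr2:102664579-102664680 (v8, 102 nt), chr2:102662828-102662917 (v9, 90 nt) and chr2:102661675-102661881 (v10, 207 nt). The exon v8 is in capitals because a pair of counted transcripts differs by this exon alone.
v6: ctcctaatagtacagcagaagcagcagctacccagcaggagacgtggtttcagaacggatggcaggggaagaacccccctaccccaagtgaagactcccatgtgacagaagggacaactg
v7: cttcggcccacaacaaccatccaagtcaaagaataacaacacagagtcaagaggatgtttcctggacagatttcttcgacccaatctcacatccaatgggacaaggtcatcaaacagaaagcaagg
v8: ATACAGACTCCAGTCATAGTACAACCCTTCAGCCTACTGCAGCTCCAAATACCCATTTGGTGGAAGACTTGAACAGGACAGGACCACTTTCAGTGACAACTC
v9: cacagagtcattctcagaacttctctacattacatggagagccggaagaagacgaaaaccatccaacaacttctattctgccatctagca
v10: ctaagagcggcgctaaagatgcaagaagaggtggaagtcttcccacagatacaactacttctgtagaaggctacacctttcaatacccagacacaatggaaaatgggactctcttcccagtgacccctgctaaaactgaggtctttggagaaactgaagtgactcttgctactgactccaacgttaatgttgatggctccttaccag

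The deposited table gives each transcript a whole number of reads, with a read entered on every transcript it overlaps. The level of a gene was therefore taken from its most counted transcript, which gave 15870158 to 20857618 counts per library, with the 4 groups overlapping in depth. These counts, divided by the library's scaled size, are called normalized counts. Tgfbr2 itself had 7562.3 to 9248.2 normalized counts in untreated Tgfbr2fl/fl libraries and 6358.2 to 6781.8 in untreated Tgfbr2-/- libraries, and 13276.2 to 13917.4 against 7116.5 to 7311.2 with H2O2. Its whole-transcript counts take in exons outside any deleted part, so they do not check the genotype labels. Of 10 proximal tubule markers, Lrp2, Aqp1 and Pax8 had at least 4156.4 normalized counts in every library, while Slc34a1, Slc22a6 and Hnf4a stayed under 10 in all 12. The summed proximal tubule list ran from 44589 to 53252 in untreated Tgfbr2fl/fl cells and from 27065 to 28640 in untreated Tgfbr2-/- cells, and with H2O2 from 53447 to 57532 and from 28709 to 30260.

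Esrp1 was the member with the widest difference between genotypes. The deposited counts of Esrp1-201, its most counted transcript, were 0 in all 6 Tgfbr2fl/fl libraries. They were 233, 228 and 246 in untreated Tgfbr2-/- cells and 253, 276 and 233 in Tgfbr2-/- cells with H2O2. Every Tgfbr2-/- library was far above every Tgfbr2fl/fl library. The mean normalized count in Tgfbr2-/- cells was 233.3 ± 11.6 (SD, n = 3) untreated and 227.4 ± 9.1 (SD, n = 3) with H2O2. A count of 0 allows up to 3 counts per library for counting error alone, or 3.44 normalized counts in the shallowest case, so that Esrp1 was at least 67.9-fold higher in untreated and at least 66.1-fold higher in H2O2-treated Tgfbr2-/- cells. In bulk RNA, a change in how many cells express a gene and a change in RNA per cell cannot be told apart. H2O2 gave no detectable difference of Esrp1 within Tgfbr2-/- cells (log2 -0.04, SE 0.11, edgeR quasi-likelihood test with Benjamini-Hochberg adjustment, adjusted p = 0.816).

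Esrp2, the paralog with overlapping targets, was present in both genotypes. Its normalized counts were 801.6, 714.4 and 677.5 in untreated Tgfbr2fl/fl cells and 777.0, 715.5 and 764.9 in untreated Tgfbr2-/- cells. These ranges overlapped. With H2O2 they were 615.9, 682.8 and 647.5 against 755.1, 710.8 and 738.9, with every Tgfbr2-/- library above every Tgfbr2fl/fl library. The genotype difference was log2 0.04 (SE 0.07, edgeR adjusted p = 0.634) untreated and log2 0.18 (SE 0.07, edgeR adjusted p = 0.0278) with H2O2, the second 1.13-fold and short of the call used here. A gene was called at an unadjusted p under 0.01 and a fold change of at least 1.5, the limits of the study. Per kilobase of transcript, the mean level of Esrp1 in untreated Tgfbr2-/- cells was 59.2 ± 2.95 normalized counts, below the 107 ± 4.63 of Esrp2 in the same libraries. In untreated Tgfbr2fl/fl cells the Esrp2 level per kilobase was 104 ± 9.04 (SD, n = 3).

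Rbm47, an RNA-binding protein known to act on many of the same exons as the Esrp proteins, rose in Tgfbr2-/- cells. Untreated Tgfbr2fl/fl libraries had 462.9, 496.3 and 444.1 normalized counts and untreated Tgfbr2-/- libraries 1961.9, 1811.4 and 2010.3. The H2O2 libraries had 501.2, 425.6 and 441.2 against 2038.1, 1979.7 and 2055.6. The genotypes did not overlap in either medium. The difference was 4.12-fold untreated (log2 2.04, SE 0.07, edgeR adjusted p = 1.87e-22) and 4.43-fold with H2O2 (log2 2.15, SE 0.07, edgeR adjusted p = 4.82e-23). With H2O2, Rbm47 differed by log2 -0.04 in Tgfbr2fl/fl cells and 0.07 in Tgfbr2-/- cells (edgeR adjusted p = 0.748 and 0.38). Of the 7 members other than Esrp1, 1 (Rbm47, upward) was called between untreated genotypes, set against 27% of all 12970 genes tested (15.7% upward and 11.3% downward). In H2O2, 2 of these 7 were called, Rbm47 upward and Cd44 downward, against 29.8% of all genes (16.9% upward and 12.9% downward). Neither share was higher than that of all genes.

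**Figure D1:**
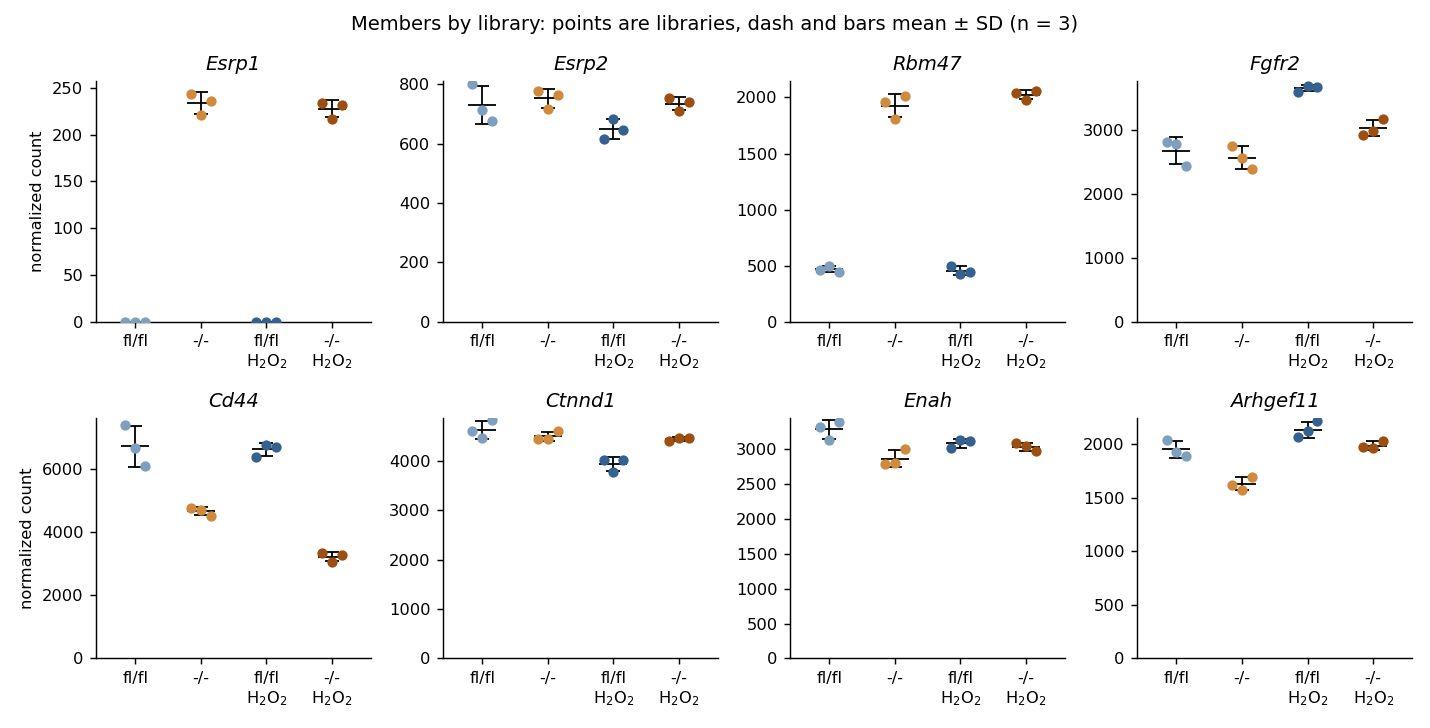
Normalized counts of the 8 members (vertical axes, each from 0) in the 4 groups, with 1 point per library and the mean ± SD (n = 3) in black. Esrp1 is at 0 in the 6 Tgfbr2fl/fl libraries and between 217.0 and 243.7 in the 6 Tgfbr2-/- libraries, Rbm47 separates the genotypes in both media, and Cd44 is lowest in Tgfbr2-/- cells with H2O2.

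Cd44 was the target gene whose level differed most. Its normalized counts were 7409.3, 6663.2 and 6111.6 in untreated Tgfbr2fl/fl cells and 4765.6, 4716.8 and 4526.0 in untreated Tgfbr2-/- cells. With H2O2 they were 6384.0, 6775.9 and 6700.7 against 3338.8, 3062.4 and 3269.9. Tgfbr2-/- libraries lay below Tgfbr2fl/fl libraries in both media, and lowest with H2O2. Cd44 fell 2.05-fold between genotypes in H2O2 (log2 -1.04, SE 0.07, edgeR adjusted p = 2.64e-15). The untreated difference of log2 -0.53 (SE 0.07, edgeR adjusted p = 1.64e-08) was 1.44-fold, under the fold limit, and reached it at log2 -0.60 without replicate 3 of untreated Tgfbr2fl/fl cells. The H2O2 difference itself differed between genotypes, being log2 -0.02 in Tgfbr2fl/fl and -0.54 in Tgfbr2-/- cells (interaction -0.51, SE 0.09, edgeR adjusted p = 0.000316). Interactions were called at an adjusted p under 0.05, as were 10.2% of all genes (6.28% downward), and Cd44 was the only member called.

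Fgfr2 levels overlapped between the untreated genotypes. Untreated normalized counts were 2818.3, 2774.1 and 2442.3 in Tgfbr2fl/fl cells and 2752.5, 2556.8 and 2394.1 in Tgfbr2-/- cells. With H2O2 they were 3601.9, 3690.6 and 3669.5 against 2925.2, 2990.9 and 3176.4. Both genotypes were higher in H2O2 than in normal media, without overlap. The H2O2 difference was log2 0.45 (SE 0.06, edgeR adjusted p = 1.06e-06) in Tgfbr2fl/fl and log2 0.24 (SE 0.06, edgeR adjusted p = 0.00303) in Tgfbr2-/- cells, both under 1.5-fold. The interaction of log2 -0.21 was not called (edgeR adjusted p = 0.141), and was called at log2 -0.28 without replicate 1 of untreated Tgfbr2fl/fl cells.

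Ctnnd1, Enah and Arhgef11 were called in no comparison of levels. Ctnnd1 encodes a catenin, which stabilises cadherins at the membrane, and had 4462.1 to 4827.5 normalized counts in untreated Tgfbr2fl/fl and 4441.4 to 4608.3 in untreated Tgfbr2-/- cells. With H2O2 it had 3776.3 to 4021.9 against 4407.7 to 4476.1, a genotype difference of log2 0.18 (SE 0.06, edgeR adjusted p = 0.0072) and so under the fold limit. Enah, an actin regulator of the Ena/VASP family, had 3138.0 to 3398.3 against 2784.9 to 3002.0 untreated (log2 -0.20, SE 0.06, edgeR adjusted p = 0.00301) and 3013.4 to 3128.7 against 2977.5 to 3084.0 with H2O2. Arhgef11, a guanine nucleotide exchange factor, had 1888.4 to 2033.5 against 1570.3 to 1691.5 untreated (log2 -0.26, SE 0.06, edgeR adjusted p = 0.000219) and 2065.8 to 2211.8 against 1958.5 to 2028.8 with H2O2. Enah and Arhgef11 were below their Tgfbr2fl/fl counterparts in every untreated library, by less than 1.5-fold.

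No member was called for H2O2 in either genotype, Esrp1 being at 0 and without a value in Tgfbr2fl/fl cells, against 7.56% of genes in Tgfbr2fl/fl and 7.77% in Tgfbr2-/- cells. By edgeR, 4 and 3 members had an unadjusted p under 0.05, as had 6362 and 6150 of all 12970 genes tested. DESeq2 also called 0 members in each genotype. The 3 regulators Esrp1, Esrp2 and Rbm47 differed by at most log2 0.17 in size between media.

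**Figure D2:**
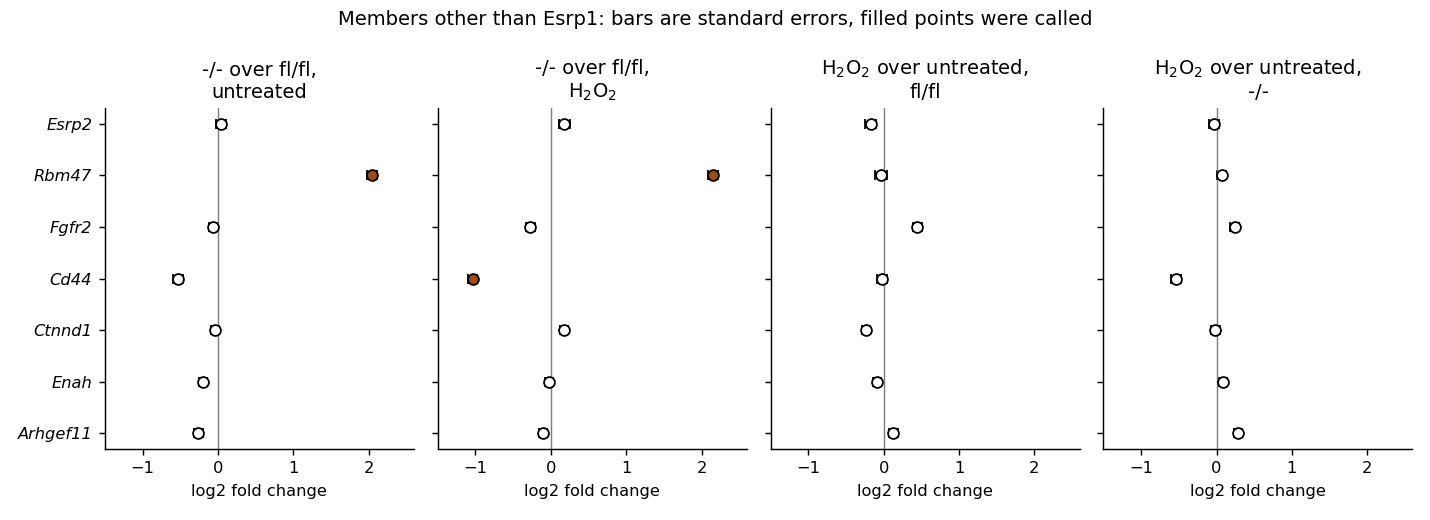
Log2 fold changes of the members (horizontal axis) with standard errors for the 2 genotype and the 2 H2O2 comparisons. Rbm47 stands at 2.04 and 2.15 between genotypes, Cd44 at -0.53 and -1.04, and the H2O2 values of all members shown lie between -0.54 and 0.45. Filled points were called. Esrp1 is not drawn because its Tgfbr2fl/fl libraries are at 0.

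Each transcript's share of its gene's summed transcript counts was then compared across the groups. Because a read adds to every transcript it overlaps, shares of isoforms that have most exons in common stay close together, and a change in 1 exon moves a share little. Esrp2-201 took 43.419% to 47.599% of Esrp2 counts over the 12 libraries, Cd44-201 17.365% to 18.391%, Rbm47-209 14.572% to 16.028%, Enah-209 16.86% to 17.902% and Arhgef11-201 27.122% to 28.262%. Among the 27 counted transcripts of Fgfr2, Fgfr2-226 took 7.598% to 7.895%, and among the 30 of Ctnnd1, Ctnnd1-220 took 3.963% to 3.983%. Of the 7 counted transcripts of Esrp1, Esrp1-201 took 19.288% to 19.859% in Tgfbr2-/- libraries, and no share exists where the gene is at 0. These shares varied by at most a few percentage points over the whole series.

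No share of a member passed the test. Of 107 member transcripts tested, 0 had an adjusted p under 0.05 in any of the 5 comparisons by the edgeR quasi-likelihood test on counts with the gene's sum as offset, where 0.132% of 68176 transcripts were called between untreated genotypes and 0.114% between genotypes in H2O2. For H2O2, 0% were called in Tgfbr2fl/fl and 0.0088% in Tgfbr2-/- cells, and 0% for the interaction. At an unadjusted p under 0.05 this test had 4 and 3 member transcripts for the genotype comparisons, 0 and 4 for H2O2 and 3 for the interaction. Over all 68176 transcripts these numbers were 2908 and 2958, 2150 and 1984, and 1398. Limma on the log2 odds and diffSpliceDGE also called 0, limma with 11 and 9 and diffSpliceDGE with 1 and 1 under an unadjusted 0.05 between genotypes. The widest untreated difference was in Rbm47-214, with 4.37% ± 0.528 in Tgfbr2fl/fl and 5.275% ± 0.282 in Tgfbr2-/- cells (SD, n = 3 each, edgeR adjusted p = 0.651). Cd44-208, a form with variable exons v4 to v10, had 8.344% ± 0.116 against 8.697% ± 0.327 untreated and 8.262% ± 0.163 against 8.623% ± 0.06 with H2O2 (SD, n = 3 each, edgeR adjusted p = 1 in both).

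To read single exons from these overlapping counts, nested transcripts were subtracted from each other, a step added after the shares had been seen. Where a longer transcript holds every exon of a shorter one and both share their ends, the reads counted on the longer and not on the shorter one overlap its extra exons alone. These reads were compared between groups relative to the count of the shorter transcript. Of 866 such pairs in all genes, 4.5% were called between untreated genotypes (2.66% upward) and 6.93% between genotypes in H2O2 (1.62% upward) at an adjusted p under 0.05. The members had 43 pairs, 3 of Cd44, 13 of Fgfr2 and 27 of Ctnnd1. The 3 called pairs in each genotype comparison were the 3 pairs of Cd44, all upward. Exon structures came from GENCODE M39 while counting used M23, so ends that differ between the releases limit this reading. Pairs with a negative difference, or with an extra part denser in reads than the shorter transcript over the 12 libraries together, were left out. This removed 7 and 10 of the 20 nested Cd44 pairs, against 960 and 1586 of 8483 nested pairs in all genes. Cd44 thus lost a larger part of its pairs than all genes did, and its 3 tested pairs are those that were left.

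Reads on variable exons of Cd44 rose in Tgfbr2-/- cells while the gene's level was lower. Cd44-202 differs from Cd44-203, which has no variable exon, by v6 to v10 (645 nt). These exons had 133, 95 and 117 reads in untreated Tgfbr2fl/fl cells and 197, 165 and 199 in untreated Tgfbr2-/- cells. With H2O2 they had 91, 87 and 81 reads against 153, 164 and 137. Every Tgfbr2-/- library had more of these reads than every Tgfbr2fl/fl library in the same medium.

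Per 1000 reads on Cd44-203, the v6 to v10 reads were 26.81, 23.28 and 30.09 in untreated Tgfbr2fl/fl cells and 62.82, 50.51 and 62.11 in untreated Tgfbr2-/- cells. With H2O2 they were 21.12, 18.9 and 20.48 against 63.09, 60.72 and 61.6. The genotypes did not overlap. Per nucleotide, these exons had 0.18 times the reads of Cd44-203 in untreated Tgfbr2fl/fl and 0.40 times in untreated Tgfbr2-/- cells, and 0.14 and 0.42 times with H2O2. The difference was 2.19-fold untreated (log2 1.13, SE 0.14, edgeR adjusted p = 2.99e-10) and 3.06-fold with H2O2 (log2 1.62, SE 0.15, edgeR adjusted p = 1.21e-15). For H2O2 itself the value was log2 -0.41 in Tgfbr2fl/fl cells (edgeR adjusted p = 0.361) and 0.08 in Tgfbr2-/- cells, and the interaction of log2 0.49 (SE 0.20) had an adjusted p of 0.572 by edgeR. No member pair was called for H2O2 or the interaction, where 0.693%, 0.693% and 0% of all pairs were called. Member pairs with an unadjusted p under 0.05 by edgeR numbered 1, 0 and 1 of 43, against 74, 67 and 54 of all 866 pairs.

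The single exon v8 gave the same direction. Cd44-205 and Cd44-204 differ by this exon of 102 nt, printed in capitals above, which lies within the v6 to v10 stretch and so shares reads with it. It had 41, 26 and 37 reads in untreated Tgfbr2fl/fl and 63, 60 and 70 in untreated Tgfbr2-/- cells. With H2O2 it had 28, 26 and 25 against 39, 47 and 50. Per 1000 reads on Cd44-204 the means were 11.7 ± 2.30 and 28.2 ± 2.04 untreated and 8.96 ± 0.75 and 26.6 ± 5.17 with H2O2 (SD, n = 3 each). Per nucleotide the exon had 0.54 and 1.30 times the reads of Cd44-204 untreated, and 0.41 and 1.22 times with H2O2. The pair passed the limit on density over all libraries, at 0.79 times, and exceeded it in Tgfbr2-/- cells alone. Reads that only touch the edge of a short exon are counted too. Reads of v8 that also reach v7 are included and those that reach v9 are not, so this value is no inclusion level. The differences were log2 1.27 (SE 0.23, edgeR adjusted p = 1.51e-05) and 1.56 (SE 0.25, edgeR adjusted p = 6.76e-07).

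The upstream variable exons were rarer. Cd44-201, which holds all 10 variable exons, exceeds Cd44-207 by v1 to v4 and v7 (609 nt), and v7 again belongs to the first stretch. It had 12, 7 and 11 such reads in untreated Tgfbr2fl/fl and 22, 32 and 24 in untreated Tgfbr2-/- cells. With H2O2 it had 10, 7 and 5 against 18, 16 and 17. Per 1000 reads on Cd44-207 this was 1.61 ± 0.39 and 5.52 ± 0.95 untreated and 1.17 ± 0.38 and 4.77 ± 0.57 with H2O2 (SD, n = 3 each). The differences were log2 1.77 (SE 0.38, edgeR adjusted p = 0.000469) and 1.99 (SE 0.42, edgeR adjusted p = 0.000243).

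**Figure D3:**
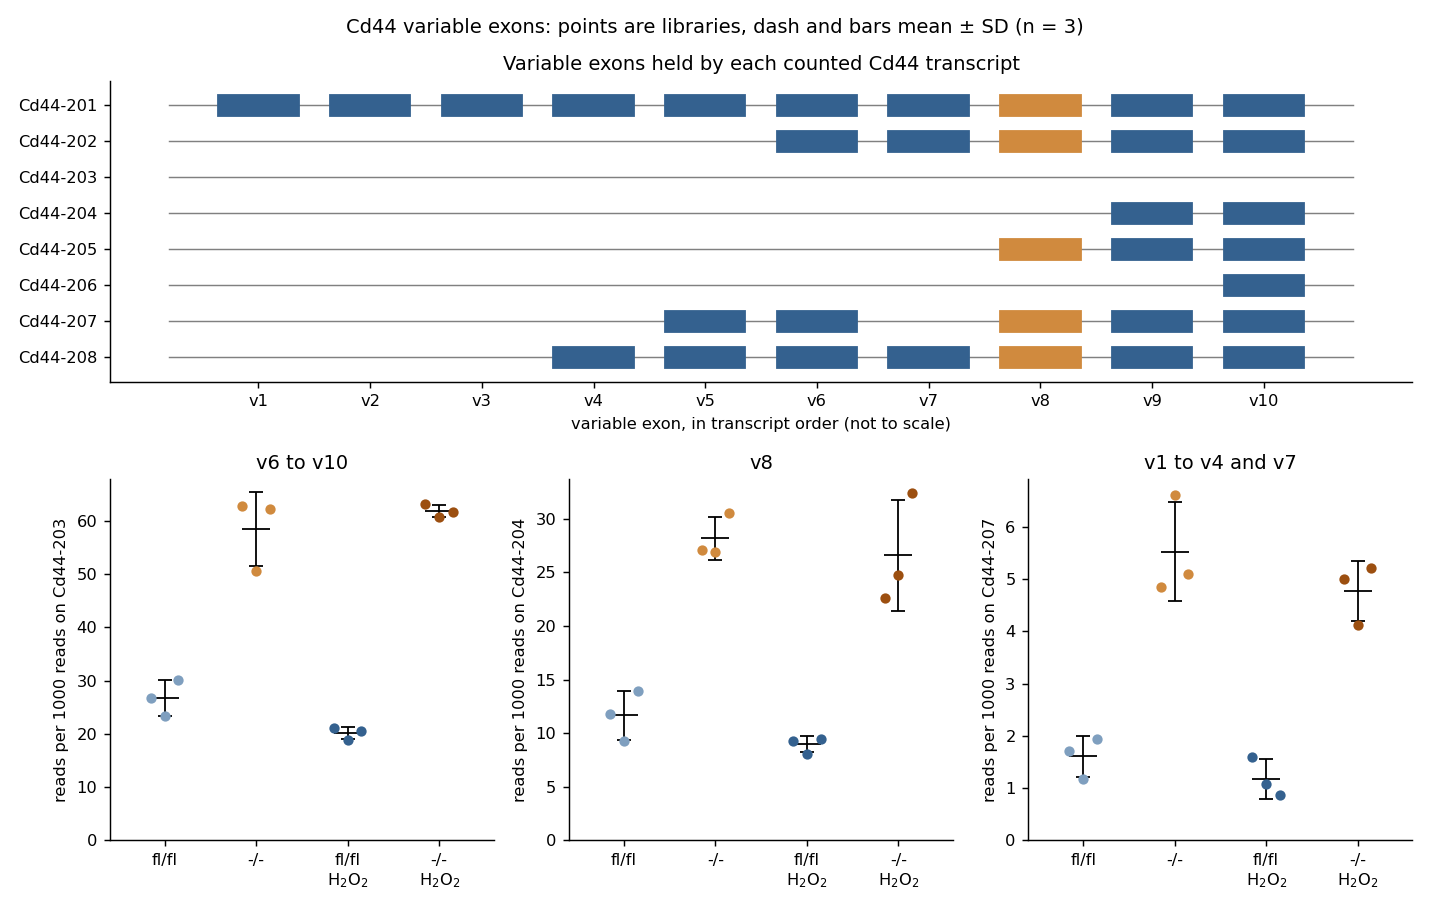
Top, variable exons (v1 to v10, in transcript order and not to scale) held by each of 8 counted Cd44 transcripts, with v8 in orange. Bottom, reads on v6 to v10, on v8, and on v1 to v4 and v7, per 1000 reads on the nested shorter transcript (vertical axes from 0), with 1 point per library and the mean ± SD (n = 3). In each panel the Tgfbr2-/- libraries lie above the Tgfbr2fl/fl libraries of the same medium.

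The alternative exons of Fgfr2 were read in the same way, and no test of them passed. Of the counted Fgfr2 transcripts, 10 hold IIIb and 5 hold IIIc. Their summed shares ran from 47.523% to 48.322% for IIIb and from 26.19% to 26.516% for IIIc over the 12 libraries, figures that reflect the number of annotated forms as well as the reads. Fgfr2-212 lacks IIIb, IIIc and the preceding constant exon IIIa (191 nt), so subtracting it leaves the reads on IIIa or IIIb from 1 form and on IIIa or IIIc from another. Reads on IIIa or IIIb were 97, 75 and 69 in untreated Tgfbr2fl/fl and 105, 118 and 97 in untreated Tgfbr2-/- cells. With H2O2 they were 125, 158 and 89 against 122, 162 and 143. Reads on IIIa or IIIc were 127, 96 and 101 against 116, 144 and 111 untreated, and 158, 201 and 140 against 155, 207 and 169 with H2O2. The count with IIIc was the higher in every library. IIIa is in both counts, so they do not show how many reads lay on IIIb.

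The ratio of IIIa or IIIc reads to IIIa or IIIb reads was 1.309, 1.28 and 1.464 in untreated Tgfbr2fl/fl cells and 1.105, 1.22 and 1.144 in untreated Tgfbr2-/- cells. With H2O2 it was 1.264, 1.272 and 1.573 against 1.27, 1.278 and 1.182. The untreated groups did not overlap and the H2O2 groups did. The untreated means were 1.351 ± 0.099 and 1.156 ± 0.059 (SD, n = 3 each), with a 2-sided exact permutation p of 0.10, which is the smallest that 3 against 3 libraries can give (adjusted p = 0.40 over 8 such comparisons). With H2O2 the means were 1.37 ± 0.176 and 1.243 ± 0.053 and the exact permutation p was 0.50. The shared IIIa reads draw this ratio towards 1. The direct difference, reads on IIIc minus reads on IIIb from an otherwise equal pair of forms, was 30, 21 and 32 reads against 11, 26 and 14 untreated, and 33, 43 and 51 against 33, 45 and 26 with H2O2 (exact permutation p = 0.20 and 0.50). Relative to Fgfr2-212, reads on IIIa or IIIb differed by log2 0.39 untreated (SE 0.16, edgeR adjusted p = 0.209) and 0.24 with H2O2 (edgeR adjusted p = 0.475). Whether the use of IIIb and IIIc differed between genotypes was not settled, since the permutation test could not pass 0.05 with 3 libraries a group.

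**Figure D4:**
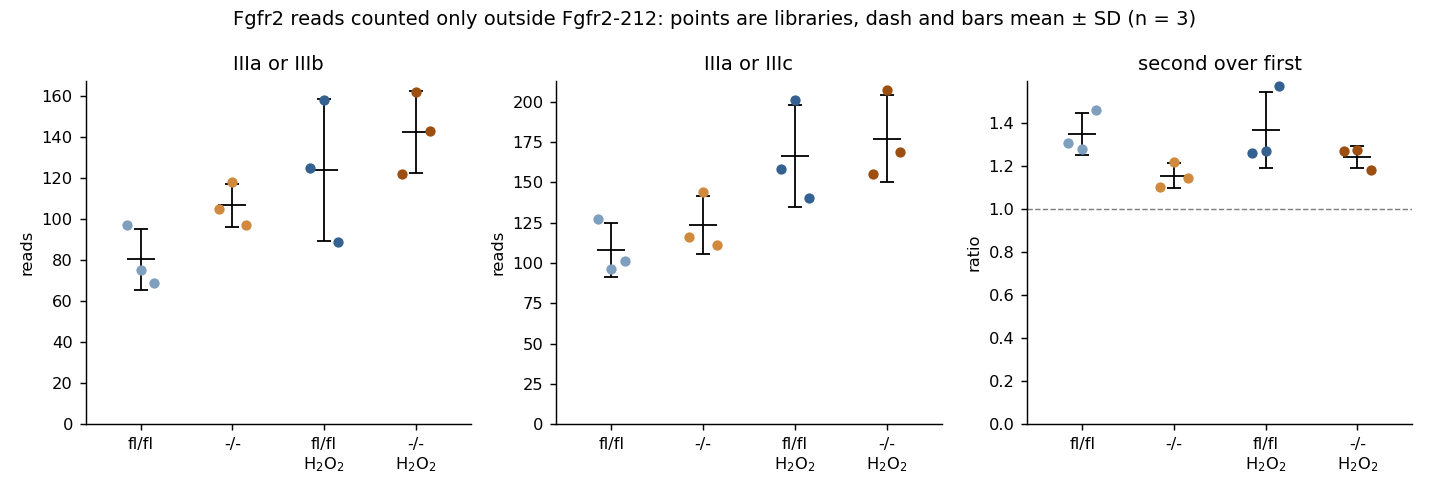
Fgfr2 reads counted outside Fgfr2-212 in the 4 groups: on IIIa or IIIb, on IIIa or IIIc (vertical axes in reads, from 0), and the ratio of the second to the first, with 1 point per library and the mean ± SD (n = 3). The untreated ratios are 1.28 to 1.464 in Tgfbr2fl/fl and 1.105 to 1.22 in Tgfbr2-/- cells, and the H2O2 groups overlap.

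The alternative exons of the other targets could be read only in part. Ctnnd1 gave 27 pairs and none was called. Ctnnd1-210 exceeds Ctnnd1-209 by 180 nt, which had 47, 43 and 53 reads in untreated Tgfbr2fl/fl and 60, 51 and 66 in untreated Tgfbr2-/- cells, and 48, 46 and 26 against 64, 59 and 32 with H2O2. The difference was log2 0.22 (edgeR adjusted p = 0.686) untreated. The only Ctnnd1 pair with an unadjusted p under 0.05 untreated, Ctnnd1-220 against Ctnnd1-210, went down (log2 -0.79, edgeR adjusted p = 0.309). The epithelial exon of Enah is a 63-nt exon in Enah-202 alone, a form that also differs at its 5′ end, so these counts do not read it. Arhgef11 and Esrp2 had no nested pair with shared ends. For Rbm47, 207 nt more in Rbm47-206 than in Rbm47-201 had 9 to 11 reads in untreated Tgfbr2fl/fl and 47 to 69 in untreated Tgfbr2-/- cells, but per 1000 reads on Rbm47-201 it ran from 30.93 to 59.76 over all libraries, and it was left out of the test by the limit on density.

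Other genes spliced under Esrp control, listed from textbook knowledge, numbered 20, all tested. Between untreated genotypes 3 rose and 1 fell, with a list median of log2 -0.14 where the median of all genes was 0.01 and 27% of them were called. Lsr, a lipoprotein receptor of tricellular junctions, had 583.9, 614.2 and 531.3 normalized counts against 2931.3, 2677.9 and 2743.5 (log2 2.27, SE 0.07, edgeR adjusted p = 2.64e-23). Ralgps2, an exchange factor for Ral, had 116.8, 109.0 and 116.1 against 401.6, 374.7 and 424.1 (log2 1.81, edgeR adjusted p = 2.59e-16). Baiap2, an adaptor of membrane protrusions, rose by log2 1.41 and Rac1, a small GTPase, fell by 0.67 on the log2 scale. With H2O2 the same 3 rose between genotypes and 1 gene fell, where 29.8% of all genes were called, and the list median was 0.04. H2O2 called 0 of the 20 in either genotype by edgeR, where 7.56% and 7.77% of all genes were called. In each genotype 13 of the 20 had an unadjusted p under 0.05 by edgeR, as had 6362 and 6150 of all 12970 genes tested. The interaction called 3 upward and 2 downward, where 10.2% of all genes were called.

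Transcript shares of these 20 genes were called in 1 gene, Epb41l5, an adaptor with a FERM domain that acts at epithelial junctions and on the cytoskeleton. Of 216 transcripts tested in the list, 6 were called untreated (2.78%) and 5 in H2O2 (2.31%). All were among the 9 tested transcripts of Epb41l5. Of all 68176 transcripts tested, 0.132% and 0.114% were called. Transcripts of 1 gene share reads and a common sum, so these calls are not independent of each other. Epb41l5-202, a full-length form of 25 exons, took 34.37%, 35.04% and 33.94% of Epb41l5 counts in untreated Tgfbr2fl/fl and 25.88%, 26.1% and 25.67% in untreated Tgfbr2-/- cells. With H2O2 it took 36.16%, 36.62% and 37.77% against 26.63%, 26.82% and 27.57%. The genotypes were far apart relative to the spread within a group, and the share change was log2 -0.41 (edgeR adjusted p = 0.000123) and -0.45 (edgeR adjusted p = 1.93e-05).

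Epb41l5-208, a coding form of 17 exons that ends further upstream, moved the other way. It has fewer exons but is longer, at 6870 nt against 6520 nt for Epb41l5-202. Its mean share was 14.65% ± 0.29 against 20.89% ± 0.40 untreated and 13.65% ± 0.70 against 20.21% ± 0.29 with H2O2 (SD, n = 3 each). The change was log2 0.51 (edgeR adjusted p = 0.000177) and 0.56 (edgeR adjusted p = 8.57e-05). Epb41l5-201 rose likewise, from 13.74% to 18.93% untreated (log2 0.46, edgeR adjusted p = 0.000686), as did the retained-intron form Epb41l5-204, from 3.85% to 6.34% (log2 0.72, edgeR adjusted p = 0.000177). Epb41l5-203, of 25 exons, fell from 22.68% to 19.36% (log2 -0.23, edgeR adjusted p = 0.00624), a call lost with diffSpliceDGE, with a limit of 1.2-fold and with only the groups compared in the fit. Epb41l5-206, a retained-intron form, was called untreated alone (log2 -1.15, edgeR adjusted p = 0.0231), and that call was lost in 6 of the 12 alternatives. The level of Epb41l5 was not called, at log2 0.01 untreated (edgeR adjusted p = 0.925) and -0.05 with H2O2 (edgeR adjusted p = 0.491). No Epb41l5 share was called for H2O2 or the interaction. Of 14 nested pairs in 6 genes of this list, edgeR called 0 in either genotype comparison, with 0 at an unadjusted p under 0.05.

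**Figure D5:**
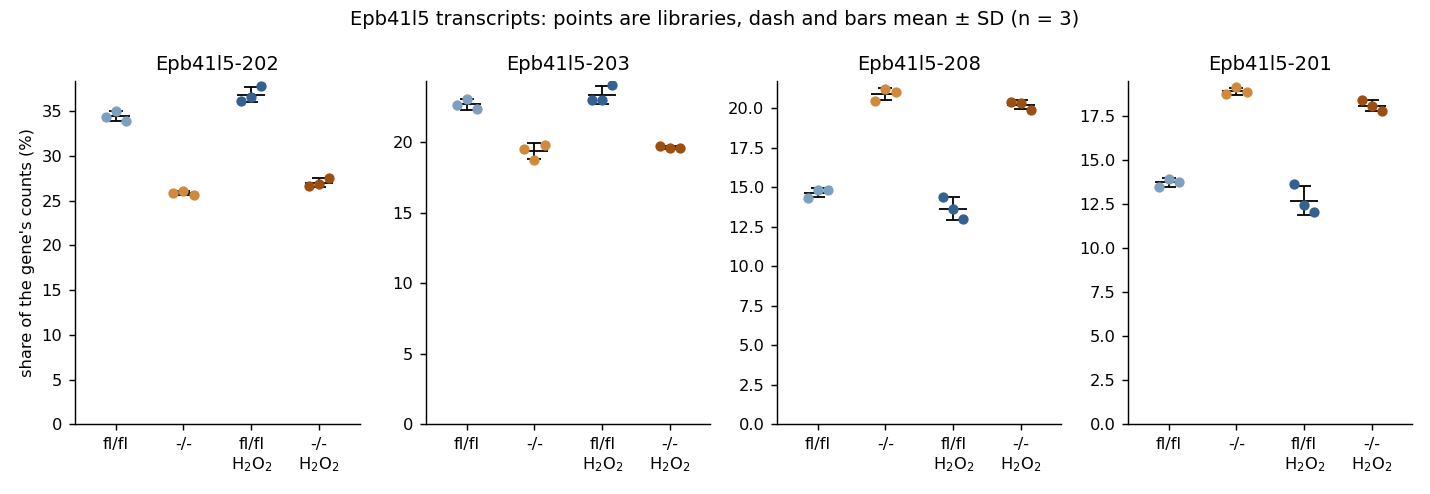
Share of Epb41l5 counts (percent, vertical axes from 0) taken by 4 of its called transcripts (Epb41l5-202, 203, 208 and 201) in the 4 groups, with 1 point per library and the mean ± SD (n = 3). Epb41l5-202 is at 33.94% to 35.04% in untreated Tgfbr2fl/fl and 25.67% to 26.1% in untreated Tgfbr2-/- cells, with Epb41l5-208 in the opposite direction.

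Of 32 other regulators of splicing listed, 31 were found by symbol and 27 were tested, and 1 rose and 2 fell between untreated genotypes, where 27% of all genes were called. Mbnl3, a muscleblind protein, rose by log2 1.35 (edgeR adjusted p = 1.60e-05). Nova1 and Nova2, neuronal splicing factors by their usual role, fell (edgeR adjusted p = 1.80e-07 and 0.00547), Nova1 by 2.50 on the log2 scale. With H2O2, Mbnl3 rose and Nova1 fell between genotypes, where 29.8% of all genes were called. Ptbp1, which represses Fgfr2 IIIb inclusion, differed by log2 -0.16 and Rbfox2 by -0.38, both under the fold limit. The list median was log2 -0.09 in each medium. H2O2 called 0 of the 27 in either genotype by edgeR, with 15 and 14 at an unadjusted p under 0.05, and the interaction 0, with 4. Of all 12970 genes tested, 7.56%, 7.77% and 10.2% were called in these comparisons. An unadjusted p under 0.05 by edgeR was found in 6362, 6150 and 3079 of them. Of 269 transcript shares and 6 nested pairs of these regulators, edgeR called 0 between genotypes, with 3 and 1 pairs at an unadjusted p under 0.05. Of all 866 pairs, 131 had such a p in each medium.

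Genes of epithelial and mesenchymal state gave the largest counts of the lists. Of 18 listed, 16 were tested, and 8 rose and 5 fell between genotypes in each medium. Of all genes, 27% were called between genotypes untreated and 29.8% in H2O2. Cdh1, the epithelial cadherin, had 1.1, 1.1 and 3.2 normalized counts in untreated Tgfbr2fl/fl and 1117.9, 1045.6 and 1170.7 in untreated Tgfbr2-/- cells. Grhl2, an epithelial transcription factor, had 1.1, 2.2 and 2.2 against 163.1, 149.1 and 200.1. These genes were thus near 0 where Esrp1 was at 0. Epcam, Ovol1, Krt8, Krt18, Cldn4 and the mesenchymal factor Twist1 also rose. Zeb1 had 1135.1, 1028.2 and 1061.4 against 576.2, 610.9 and 559.0 (log2 -0.89, SE 0.07, edgeR adjusted p = 1.57e-13). Zeb2 had 328.2, 331.6 and 357.0 against 85.8, 100.7 and 104.3 (log2 -1.80, SE 0.11, edgeR adjusted p = 3.64e-15). Both repressors fell without overlap between genotypes, as did Cdh2, Snai2 and Fn1, with log2 values of -1.98, -1.40 and -3.49. Vim differed by log2 -0.24 and was not called. With H2O2, Cdh1 rose and Krt8 and Fn1 fell in Tgfbr2-/- cells. Of all genes, 7.77% were called for H2O2 there and 7.56% in Tgfbr2fl/fl cells. In Tgfbr2fl/fl cells the H2O2 call of 2 genes rests on very low counts, 1.1 to 3.2 against 4.6 to 12.4 for Cdh1 and 0 against 1.0 to 7.2 for Cldn4. Genes near 0 in Tgfbr2fl/fl cells, such as these and Grhl2, passed the filter on low counts through their Tgfbr2-/- libraries. The interaction was called in 3 of the 16, all downward, against 10.2% of all genes (6.28% downward). The 8 that rose and the list median take in genes near 0 in Tgfbr2fl/fl cells. This median was log2 0.67 untreated and 0.61 in H2O2, against 0.01 and 0.02 over all genes.

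Markers of other cell types moved with genotype in part. The summed distal tubule and collecting duct list ran from 83 to 118 in untreated Tgfbr2fl/fl and 369 to 423 in untreated Tgfbr2-/- cells, with Scnn1a and Gata3 making up most of it and Calb1, Aqp2 and Atp6v1g3 at 0 in every library. The fibroblast list ran from 523 to 548 and 2363 to 2632, nearly all of it Acta2. Col3a1 and Pdgfra were under 10 and Lum at 0 throughout. Col1a1 went the other way untreated, at 37.8 to 49.4 against 9.7 to 19.9 normalized counts. Pdgfrb did too, at 11.8 to 21.1 against 0.0 to 6.3, and Dcn had 0.0 to 3.3 against 2.1 to 7.7. The leukocyte list (139 to 147 and 231 to 253) was nearly all Cd68, with Adgre1 and Cd3e at 0, and the endothelial list (127 to 138 and 465 to 586) nearly all Kdr, with Pecam1, Cdh5, Tek and Emcn under 10. With H2O2 the respective ranges were 133 to 149 and 185 to 202, 249 to 280 and 627 to 764, 141 to 153 and 222 to 273, and 23 to 26 and 39 to 66. Their part in the differences of Esrp1, Rbm47 and Cd44 was not tested.

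The genes whose pattern over the 12 libraries was most like that of Esrp1 were Gstm2, Crip1, Limch1, Rassf2 and Wfdc2. Likeness was the root mean square difference of log2(CPM + 1), each gene centred on its own mean, among 12594 protein-coding genes, and these 5 had differences of 0.119, 0.14, 0.166, 0.176 and 0.177. Gstm2, a glutathione transferase of a family with very similar copies whose reads may be mixed in these counts, had 170.4 to 212.9 normalized counts in untreated Tgfbr2fl/fl and 2712.7 to 3051.6 in untreated Tgfbr2-/- cells. Wfdc2, a secreted protein of epithelia, was at 0 in all Tgfbr2fl/fl libraries and at 206.8 to 235.3 in untreated and 274.2 to 319.2 in H2O2-treated Tgfbr2-/- cells. Crip1 had 0 to 2.2 and 190.3 to 209.1 untreated. Limch1 had 32.3 to 44.2 and 592.5 to 629.6 untreated, and Rassf2 53.8 to 64.5 and 1405.5 to 1420.6. Gstm2, Limch1 and Rassf2 were thus counted in Tgfbr2fl/fl cells, unlike Esrp1. The 1 added to CPM narrows the difference of a gene at 0, so this likeness is not one of fold change.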

How the data were processed

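RNA of conditionally immortalized PT cells was sequenced in 12 libraries (TruSeq mRNA libraries). Per the labels the reads were aligned with STAR and counted with featureCounts on GRCm38.p6, and the methods of the study name fastp and GENCODE M23. The deposited unit is unnormalized read counts, 1 value for each transcript and library, which the authors made by counting a read on every transcript it overlaps. Deposited totals of 51387170 to 69231661 per library therefore exceed the reads. Transcripts were joined by identifier to GENCODE M39 (GRCm39), which matched 104820 of 106332. The 1512 unmatched ones held 1.221% to 1.281% of counts.

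A gene's level was its most counted transcript. Levels were tested over all 12 libraries with edgeR 4.0.16 (TMM, filterByExpr, quasi-likelihood, R 4.3.3), called at p under 0.01 and 1.5-fold. Shares were tested with the gene's sum as offset (at least 10 in every library, transcripts with at least 10 counts in at least 3 libraries), called at an adjusted p under 0.05. The test of nested pairs used the shorter transcript's count as offset and was chosen after seeing the data, as was the exact permutation test of Fgfr2 reads. Alternatives used DESeq2 1.42.0, limma 3.58.1 and diffSpliceDGE. The edgeR tests of levels, shares and nested pairs were tested on simulated data for the untreated genotype comparison. Simulated features were drawn independently and share changes were 1.5-fold. Reads shared between transcripts and smaller share changes were therefore not covered. Genes named in the text are the members, the genes of the fixed lists that were called or that bear on Esrp, the cell type markers and the 5 genes most like Esrp1. Members and lists were chosen with earlier results of these data known. The precision is limited by 3 libraries per group, and the floor used for Esrp1 covers counting error only. Some values are not reported here.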

Additional observations from a re-analysis of the deposited data

Results flagged for a closer look

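The H2O2 difference of Cd44 was not the same in the 2 genotypes, by a test of the difference itself. In Tgfbr2fl/fl cells the mean log2 difference with H2O2 was -0.02 and in Tgfbr2-/- cells -0.54, an interaction of log2 -0.511 (SE 0.09, edgeR adjusted p = 0.000316). All 3 H2O2-treated Tgfbr2-/- libraries lay below all 3 untreated ones, while the Tgfbr2fl/fl libraries overlapped between media. The interaction is 1.43-fold in size and would not be called under the limits used for the other comparisons, an unadjusted p under 0.01 and at least 1.5-fold. Over 19 alternatives it ranged from -0.61 to -0.47. H2O2 was given in serum free media, so H2O2 and the removal of serum cannot be told apart. With 3 libraries per group, single libraries were not examined as outliers.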

How the results depend on the processing

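Of 195 recomputed counts of calls, 156 stayed within 1.5 times the reported count. For the genes called in the interaction (1321) the count was 357 with an unadjusted p and the fold limit, and 833 to 1680 when single libraries were left out. For transcript shares between untreated genotypes (90) it was 157 with limma, 52 with the replicate block, 23 with only the groups compared and 51 to 118 with a library left out. Between genotypes in H2O2 (78) it was 149 with limma, 138 with diffSpliceDGE, 47 with only the groups compared and 42 to 53 with a library left out. For H2O2 in Tgfbr2fl/fl cells (0 by edgeR, 2150 at an unadjusted p under 0.05) it was 2 with limma, 6 with diffSpliceDGE, 1 with the replicate block and 0 to 3 with a library left out. For H2O2 in Tgfbr2-/- cells (6) it was 0 with a limit of 1.2-fold, 2 with the replicate block, 0 with only the groups compared and 0 to 4 with a library left out. For nested pairs, leaving out a library gave 34 to 53 between genotypes in H2O2 (60), 3 to 7 for H2O2 in Tgfbr2fl/fl cells (6), 3 to 6 in Tgfbr2-/- cells (6) and 0 to 3 for the interaction (0), and no limit on density gave 14 for H2O2 in Tgfbr2fl/fl cells. The cause of these shifts was not tested, beyond the fewer libraries in some fits. No member share was called under any of these alternatives, and the 3 Cd44 pairs were called between genotypes under all 10 alternatives, with log2 values of 1.04 to 1.23 and 1.57 to 1.65 for v6 to v10.

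Replicate numbers did not pair the libraries: of 15 correlations between same-numbered libraries' deviations, from -0.221 to 0.107, 1 was over 0.1. With the replicate block the same members were called at the gene level. Of the member levels, Ctnnd1 was called in the interaction by DESeq2 (log2 0.20), and a filter of at least 10 counts in every library removed Esrp1. Depth limits the rarer variable exons of Cd44, with 5 to 32 reads a library on v1 to v4 and v7.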

Other observations

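Relative to the shorter transcript, reads on alternative exons of a few other genes differed between genotypes in both media. These genes were chosen after their values were seen. Among all 866 nested pairs, 24 pairs of 9 genes were called in the same direction in both media: 3 of Cd44, and the others in genes that include Fn1, Tnc, Myo6, Mat2a, Taf1d, Myl6 and Abi3bp. Pairs of 1 gene share reads. Fn1 encodes fibronectin, whose extra domain exons are included in cellular and not in plasma fibronectin. An exon of 270 nt (Fn1-214 against Fn1-203) had 8.05 ± 0.84 reads per 1000 in untreated Tgfbr2fl/fl and 3.90 ± 0.84 in untreated Tgfbr2-/- cells, and 7.95 ± 0.77 against 2.52 ± 0.28 with H2O2 (SD, n = 3 each). It fell by 1.04 and 1.67 on the log2 scale (edgeR adjusted p = 2.09e-08 and 4.58e-12). A second exon of 273 nt (Fn1-201 against Fn1-214) fell by 0.81 and 1.01 on the log2 scale (edgeR adjusted p = 0.0331 and 0.011). It had 2.72 ± 0.17 against 1.56 ± 0.98 reads per 1000 untreated and 3.17 ± 0.05 against 1.60 ± 0.98 with H2O2 (SD, n = 3 each). The Tgfbr2-/- values rest on few reads, 23, 15 and 5 untreated and 17, 8 and 6 with H2O2. The means of both extra exons were thus lower relative to the shorter transcript while Fn1 itself fell, the second less securely.

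Tnc encodes tenascin-C, a matrix glycoprotein with alternative fibronectin repeats. Relative to Tnc-201, a stretch of 273 nt (Tnc-203 against Tnc-201) rose from 1.17 ± 0.24 to 4.68 ± 0.27 reads per 1000 untreated and from 1.64 ± 0.27 to 3.48 ± 0.60 with H2O2 (log2 1.99 and 1.10, edgeR adjusted p = 2.26e-09 and 0.00128). The reads themselves did not rise. They were 41, 22 and 30 in Tgfbr2fl/fl against 37, 32 and 35 in Tgfbr2-/- cells untreated, and 52, 47 and 50 against 23, 37 and 29 with H2O2. The higher ratio thus came with fewer reads on Tnc-201 in Tgfbr2-/- cells. Myl6, a myosin light chain, had a pair of segments (Myl6-202 against Myl6-206) that fell by 0.87 and 0.97 on the log2 scale (edgeR adjusted p = 6.81e-08 and 9.67e-10). None of these genes is on the lists of Esrp targets used here.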
